A study of Homo sapiens with 19 samples.

Results

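RNA-seq levels of 42 genes for proteins that fetal and adult liver and the yolk sac secrete into blood were examined in H1 human embryonic stem cells (hESCs), an established line, after loss of Polycomb repressive complex 2 (PRC2). The genes were taken by symbol: oncofetal and carrier proteins, apolipoproteins, fibrinogen chains and clotting factors, serpins, and complement and matrix-binding proteins. All 42 symbols were found, in 43 of the 33382 rows of each sample. SERPINA3 had 2 rows, ENSG00000196136 and ENSG00000273259. In GENCODE release 44 on GRCh38 the latter lies on chromosome 14 from 94592058 to 94624646 and overlaps the whole of the former, from 94612384 to 94624055, on the same strand, so how reads were split between these rows is uncertain. The 19 samples comprised 2 each of unedited H1 (WT H1), the single knockouts of the catalytic subunits (EZH1-/- H1 and EZH2-/- H1), their double knockout (EZH2-/-/EZH1-/- H1), and the knockouts of the core subunits EED (EED-/- H1) and SUZ12 (SUZ12-/- H1). The remaining 7 came from H1-EED-/-/EED-OE cells, which lack endogenous EED and carry an EED transgene induced by doxycycline (DOX). Of these, 1 was kept with DOX, and the others were taken 8, 12, 16, 20, 24 and 28 days after its withdrawal. PRC2 deposits H3K27me3, a repressive histone mark. The 3 lines that lack a core subunit or both catalytic subunits are called PRC2-null here, and the single knockouts of EZH1 or EZH2 keep the other catalytic subunit. Per the study, PRC2-null cells left the undifferentiated state in culture, so their samples are not stem cell lines at steady state. Within a knockout line the titles of the 2 samples differ by a code that the labels do not spell out, those of WT H1 only by a number, and the title of the sample with DOX also names day 28, which its other label fields do not.

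The visceral endoderm of the yolk sac secretes serum proteins before the liver does, and fetal hepatocytes then take over the same set, with AFP ahead of ALB. In both tissues, transcription factors of the HNF1, HNF4, FOXA, GATA and C/EBP families act on the promoters and enhancers of these genes. The apolipoproteins carry lipids, the fibrinogen chains and clotting factors form and dissolve clots, and the serpins are mostly inhibitors of proteases in plasma.

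The promoters of 6 of these genes are shown because the genes span the range of patterns described below, from AFP, ALB and FGB to APOA2, SERPINA1 and AHSG (chosen after their values were seen). Each line gives the 250 bases before a RefSeq start site on the coding strand (GRCh38.p14), with matches to the motif cores in capitals.
AFP, chr4:73435971-73436220, plus strand: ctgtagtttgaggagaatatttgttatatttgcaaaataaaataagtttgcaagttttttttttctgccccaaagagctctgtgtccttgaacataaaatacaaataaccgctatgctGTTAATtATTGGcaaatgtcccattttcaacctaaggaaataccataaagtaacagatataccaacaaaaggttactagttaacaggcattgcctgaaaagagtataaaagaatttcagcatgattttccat
ALB, chr4:73404037-73404286, plus strand: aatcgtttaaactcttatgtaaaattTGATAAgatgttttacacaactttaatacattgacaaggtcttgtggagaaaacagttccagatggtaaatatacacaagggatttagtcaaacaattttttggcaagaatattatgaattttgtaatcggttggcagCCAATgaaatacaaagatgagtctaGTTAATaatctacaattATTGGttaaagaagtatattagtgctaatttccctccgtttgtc
FGB, chr4:154562730-154562979, plus strand: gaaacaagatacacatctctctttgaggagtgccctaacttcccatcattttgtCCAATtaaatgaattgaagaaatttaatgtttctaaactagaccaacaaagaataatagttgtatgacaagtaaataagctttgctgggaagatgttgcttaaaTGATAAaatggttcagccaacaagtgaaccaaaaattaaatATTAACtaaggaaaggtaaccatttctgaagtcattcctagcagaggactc
SERPINA1, chr14:94388603-94388852, minus strand: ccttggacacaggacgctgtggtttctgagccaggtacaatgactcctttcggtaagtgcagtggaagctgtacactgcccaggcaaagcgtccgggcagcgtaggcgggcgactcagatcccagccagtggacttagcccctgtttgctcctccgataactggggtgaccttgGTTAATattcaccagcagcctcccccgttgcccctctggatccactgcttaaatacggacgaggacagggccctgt
APOA2, chr1:161223629-161223878, minus strand: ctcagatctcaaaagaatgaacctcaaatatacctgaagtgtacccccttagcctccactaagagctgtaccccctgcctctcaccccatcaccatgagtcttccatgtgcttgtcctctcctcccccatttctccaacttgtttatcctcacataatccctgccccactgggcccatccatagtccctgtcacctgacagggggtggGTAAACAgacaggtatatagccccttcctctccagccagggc
AHSG, chr3:186612810-186613059, plus strand: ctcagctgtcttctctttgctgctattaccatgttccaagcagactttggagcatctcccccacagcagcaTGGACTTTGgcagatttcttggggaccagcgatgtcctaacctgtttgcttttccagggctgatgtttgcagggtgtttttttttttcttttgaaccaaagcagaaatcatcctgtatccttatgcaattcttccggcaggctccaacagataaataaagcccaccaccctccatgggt

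RefSeq windows of 250 bases before to 50 after a start site were found for 31 of the 42 genes and searched on both strands for 6 short cores. The HNF1 core GTTAAT was in windows of 10 of the 31 genes (32.3%: AFP, ALB, APOH, FGA, FGB, SERPINA1, SERPINA6, F2, PROC and PLG), beside 8.27% of 27305 genes. The CCAAT box was in 16 (51.6%) beside 39.7%, the GATA core TGATAA in 6 (19.4%) beside 9.22%, the FOXA core TGTTTAC in 3 (9.68%) beside 4.19%, the HNF4 core CAAAGTCCA in 2 (AHSG and F10, 6.45%) beside 0.472%, and the C/EBP palindrome TTGCGCAA in 0 beside 0.172%. In AFP the HNF1 core began at position -132 from the start site and in ALB at -61, and on the other strand in FGB at -51. In SERPINA1 it began at -76. Over the windows of the 31 genes, 1 pair of matches to different cores overlapped. These matches are letters in a window, not binding sites.

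All values were TPM, which are scaled to the same total in each sample, so the sequencing depth behind them is unknown. Between 14389 and 17043 genes had a TPM of at least 1 in a sample, and 0 pairs of samples were identical. EED RNA was at 109 TPM with DOX and at 12.6 to 31.6 without it. Per the study the knockouts removed a domain rather than a gene, and the whole-gene RNA of the target did not mark the lines (SUZ12 RNA was at 22.9 and 20.8 TPM in SUZ12-/- H1 and 25.2 and 27.9 in WT H1), so these RNA levels do not check the labels. The study itself checked its knockouts by genomic PCR, qRT-PCR and western blots. The median absolute log2 difference between the samples of a line over these genes was 0.813 in EED-/- H1, 0.579 in EZH2-/-/EZH1-/- H1 and 0.063 in SUZ12-/- H1, and 32 rows were higher and 11 lower in EED-/- H1 replicate 2 than in replicate 1. Whether the codes in the titles stand for clones, passages or cultures is not spelled out, so p-values measure the spread between these samples, which may be partly technical.

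Markers of several cell types moved with the lines, and their part in the results was not tested. All 6 markers of pluripotent stem cells fell in each PRC2-null line, from a summed 4945 to 6102 TPM in the WT and single-knockout samples to 118 to 444 TPM. Visceral endoderm markers rose, 5 of 6 in EED-/- H1 and all 6 in both others, from 1.40 to 3.80 TPM to 154 to 169 in EED-/- H1, 206 to 214 in SUZ12-/- H1 and 130 to 238 in EZH2-/-/EZH1-/- H1. Hepatocyte markers (6 genes) summed to 13.9 to 34.9 TPM in the WT and single-knockout samples, 13.5 to 13.8 in EED-/- H1, 79.8 to 82.8 in SUZ12-/- H1 and 13.2 to 18.1 in EZH2-/-/EZH1-/- H1. The 1 that rose in SUZ12-/- H1 was ASGR1, at 69.5 and 66.8 TPM, 1 fell in each of the other lines, and TAT, CYP3A4 and SLC10A1 did not exceed 0.37, 0.63 and 0.63 TPM in any sample. Fibroblast and smooth muscle markers (8 genes) summed in the same order to 211 to 614, 9453 to 12170, 21820 to 22160 and 7874 to 9704 TPM, with 8, 7 and 8 genes called higher in the PRC2-null lines. Endothelial markers (6 genes, 4 higher in each line) summed to 46.5 to 146, 352 to 545, 152 to 165 and 56.9 to 190.4 TPM, and trophoblast markers (6 genes, with 4, 5 and 4 higher) to 12.2 to 15.4, 298 to 430, 242 to 259 and 216 to 230 TPM. Macrophage markers (8 genes, 1 higher in each line, and 1 lower in EED-/- H1 and 1 in EZH2-/-/EZH1-/- H1) summed to 10.3 to 32.8, 8.57 to 16.5, 37.9 to 39.5 and 10.7 to 14.6 TPM, and C1QA and C1QB did not exceed 0.19 and 0.15 TPM. These are bulk samples, in which more cells of a type and more RNA per cell cannot be told apart.

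The 43 rows together held 0.0951% to 0.147% of all TPM in the 6 WT and single-knockout samples. They held 0.304% and 0.673% in EED-/- H1, 0.466% and 0.539% in EZH2-/-/EZH1-/- H1, and 3.12% and 3.23% in SUZ12-/- H1 cells. AFP alone made up 42.3% of that total in each SUZ12-/- H1 sample, and between 3.39% and 11.4% in the other PRC2-null samples. In the 6 other samples of the lines, APOE made up 74.9% to 82.4%. A TPM of at least 100 was reached by 20 rows in both SUZ12-/- H1 samples, by 6 or 7 in the other PRC2-null samples and by 1 or 2 in the remaining lines.

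**Figure D1:**
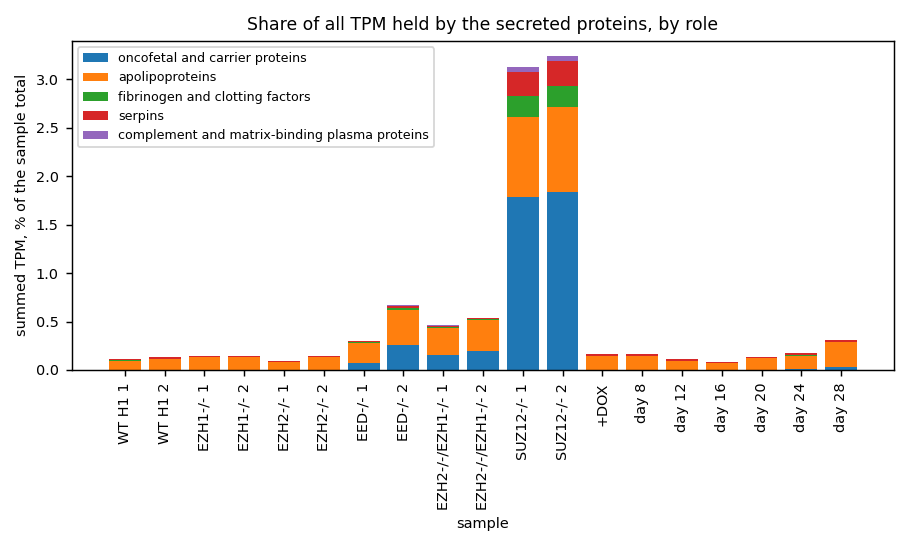
Summed TPM of the 43 rows as a percentage of each sample's total (y axis), stacked by role, for the 19 samples (x axis). The SUZ12-/- H1 samples stand at 3.12% and 3.23%, and every other sample is at or below 0.673%.

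Set against WT H1, the PRC2-null lines averaged over the 3 were higher for 25 of the 43 rows and lower for 0, at an adjusted p of at most 1% and a fold change of at least 3 (limma on log2(TPM + 1), Benjamini-Hochberg adjustment over 19100 genes). Of all genes tested, 13.6% were called higher and 5.36% lower in that comparison. The median log2 fold change was 2.13 over the rows tested and 0.284 over all genes. In EED-/- H1 cells 21 rows were higher and 1 lower, beside 16.2% and 6.09% of all genes. In SUZ12-/- H1 cells 38 were higher and 0 lower, beside 14.5% and 5.21%. In EZH2-/-/EZH1-/- H1 cells 12 were higher and 0 lower, beside 11.6% and 5.66%. The 12 rows called in all 3 lines were AFP, APOA1, APOA2, APOA4, APOB, TTR, FGB, SERPINA1, VTN, HPX, F2 and F10. A further 17 were called in SUZ12-/- H1 cells and in neither other line.

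One row, SERPINA6, did not pass the filter on low values, which asked for 1 TPM or more in 2 or more of the 12 libraries of the lines. Of the 42 that passed, 25 did so only through PRC2-null samples, and 7 of these only through the SUZ12-/- H1 samples, so these had to be higher there. The other 17 passed on the WT and single-knockout samples alone, and of these 14 were called higher in SUZ12-/- H1, 5 in EED-/- H1 and 4 in EZH2-/-/EZH1-/- H1 cells. These 17 were AFP, APOA1, APOC1, APOE, APOM, SERPINA5, SERPINF1, SERPINF2, SERPING1, AMBP, RBP4, HPX, F7, F10, PROC, C3 and CP. The counts by role given below mix these with rows that had to be higher in PRC2-null samples. Without a test, 24 rows had every PRC2-null sample above every one of the 6 others, beside 24.2% of the genes tested, and 0 were lower in all 6, beside 13.3%. Both SUZ12-/- H1 samples were above all 17 other samples for 42 rows, beside 8.63% of genes. The exception was APOC1. With only the 4 samples of the lines compared in a fit, the calls of FGB and FGG in EED-/- H1 and of FGB, APOB and HPX in EZH2-/-/EZH1-/- H1 were lost.

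**Figure D2:**
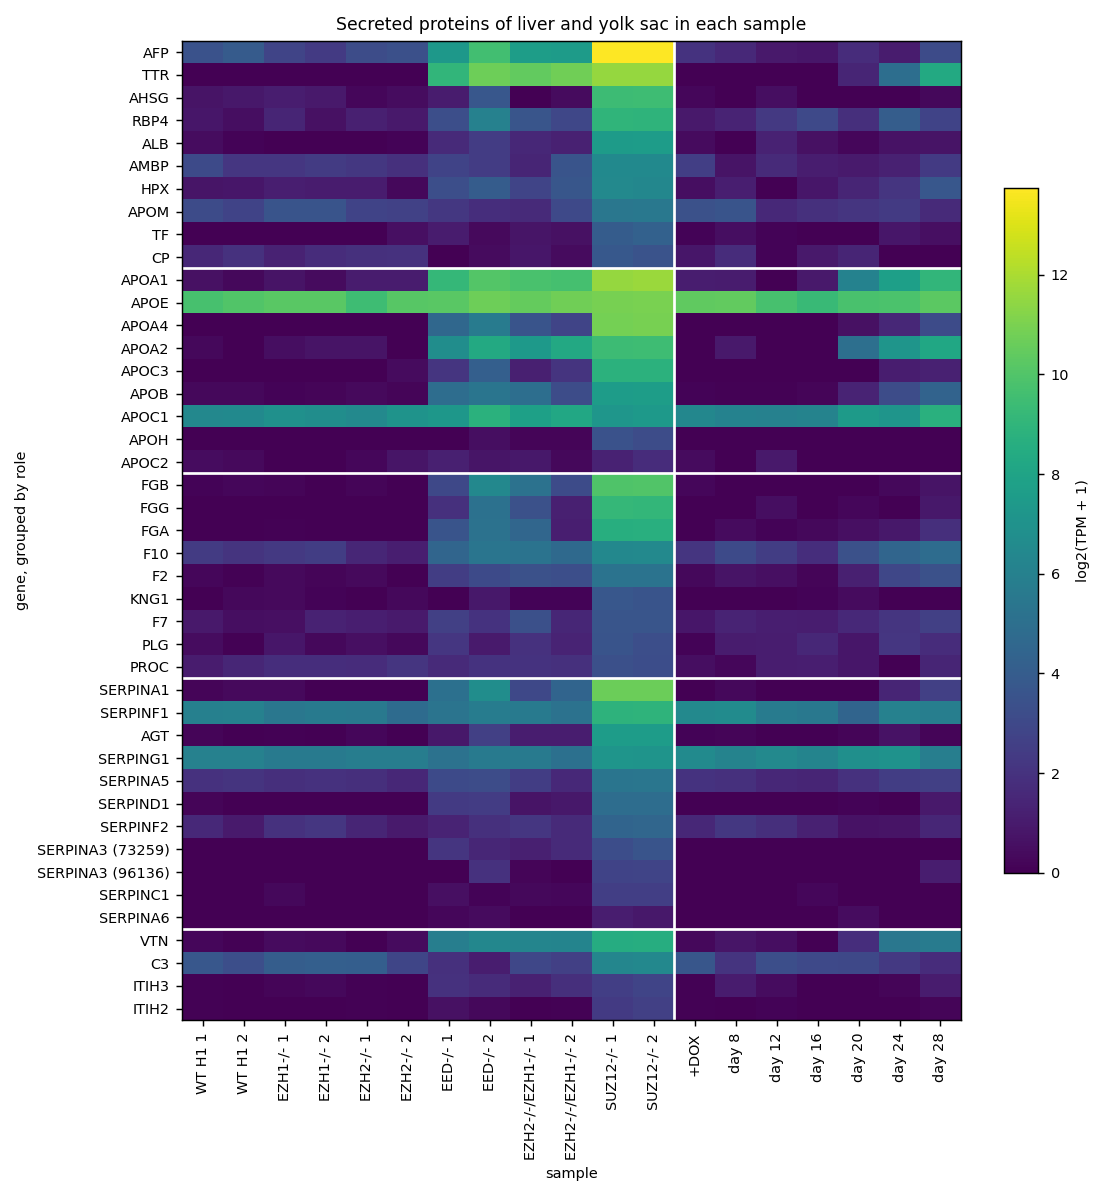
log2(TPM + 1) of the 43 rows (y axis, grouped by role, with the last 5 digits of the identifier for the SERPINA3 rows) in the 19 samples (x axis), with the inducible line at the right. The SUZ12-/- H1 columns are the brightest for 42 of the 43 rows, and a smaller set brightens at days 24 and 28.

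Of the 10 oncofetal and carrier proteins, all 10 were called higher than WT H1 in SUZ12-/- H1 (beside 14.5% of all genes), 5 in EED-/- H1 (16.2%) and 3 in EZH2-/-/EZH1-/- H1 cells (11.6%). AFP, the fetal counterpart of albumin, was at 10.2 and 14.3 TPM in WT H1, 5.97 and 4.08 in EZH1-/- H1, 8.23 and 9.39 in EZH2-/- H1, 163 and 768 in EED-/- H1, 201 and 183 in EZH2-/-/EZH1-/- H1 and 13208 and 13695 in SUZ12-/- H1 cells. The PRC2-null samples did not overlap the others, and the SUZ12-/- H1 samples stood far above the rest, with AFP the gene of rank 2 by TPM in each. On the log2(TPM + 1) scale, used for all fold changes here, AFP was 1020-fold higher than in WT H1 in SUZ12-/- H1 (SE 0.52 on the log2 scale, adjusted p = 3.98e-07). The log2 fold change was 4.76 ± 0.52 (SE) in EED-/- H1 (adjusted p = 3.32e-05) and 3.88 ± 0.52 in EZH2-/-/EZH1-/- H1 cells (adjusted p = 0.000183). In the inducible line AFP was at 2.97 TPM with DOX and at 0.78 to 7.94 from day 8 to day 28 without it, below its level in WT H1 throughout.

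ALB, the main protein of adult plasma, was at 184 and 193 TPM in SUZ12-/- H1, 2.06 and 4.38 in EED-/- H1, 1.91 and 1.37 in EZH2-/-/EZH1-/- H1 and at most 0.36 in the 6 other samples of the lines. AFP exceeded it 71.9-fold and 71.0-fold in SUZ12-/- H1 and between 78.9-fold and 175-fold in the other PRC2-null samples, on the TPM scale, which corrects for transcript length. ALB was called higher in SUZ12-/- H1 (log2 fold change 7.29 ± 0.31, adjusted p = 1.17e-07) and EED-/- H1 (1.74 ± 0.31, adjusted p = 0.000812), the latter not without EED-/- H1 replicate 2 nor without WT H1 replicate 2.

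TTR, the carrier of thyroxine and of the RBP4 complex, was listed at 0 in all 6 WT and single-knockout samples. It was at 535 and 1694 TPM in EED-/- H1, 1369 and 1746 in EZH2-/-/EZH1-/- H1 and 2997 and 3079.8 in SUZ12-/- H1 cells. Every PRC2-null sample was thus high, and the 3 lines lay closer together than for AFP. The log2 differences from WT H1, which have no fold because WT H1 was listed at 0, were 9.90 ± 0.40, 10.60 ± 0.40 and 11.57 ± 0.40 on the log2(TPM + 1) scale (adjusted p = 7.75e-08, 7.83e-08 and 2.84e-08). RBP4, which carries retinol, was at 0.45 to 1.72 TPM in the 6 other samples, 8.70 and 64.0 in EED-/- H1, 11.3 and 6.52 in EZH2-/-/EZH1-/- H1 and 499 and 492 in SUZ12-/- H1 cells. The 2 EED-/- H1 samples differed 7.36-fold. It was called in EED-/- H1 (adjusted p = 0.000675) and SUZ12-/- H1 (adjusted p = 4.94e-06), and not in EZH2-/-/EZH1-/- H1 cells (log2 fold change 2.57 ± 0.68, adjusted p = 0.0106).

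AHSG, the calcium-binding plasma protein fetuin-A, was at 673 and 699.6 TPM in SUZ12-/- H1 cells. It was at 1.08 and 12.4 TPM in EED-/- H1, 0 and 0.30 in EZH2-/-/EZH1-/- H1 and 0.19 to 1.16 in the 6 other samples. Only the SUZ12-/- H1 samples stood clear of the rest, and EED-/- H1 replicate 2 was the next. The log2 fold change in SUZ12-/- H1 was 8.63 ± 0.63 (adjusted p = 2.38e-06), against 1.61 ± 0.63 (adjusted p = 0.0542) and -0.60 ± 0.63 (adjusted p = 0.466) in EED-/- H1 and EZH2-/-/EZH1-/- H1 cells. HPX, which binds heme, was called in all 3 lines and was at 8.96 and 15.3 TPM in EED-/- H1, 6.06 and 11.6 in EZH2-/-/EZH1-/- H1, 86.1 and 82.5 in SUZ12-/- H1 and 0.24 to 1.2 in the others. AMBP, the precursor of alpha-1-microglobulin and bikunin, was at 91.7 and 90.8 TPM in SUZ12-/- H1, 5.87 and 4.44 in EED-/- H1, 1.70 and 10.7 in EZH2-/-/EZH1-/- H1 and 2.70 to 7.52 in the 6 others. TF, the iron carrier transferrin, was at 15.1 and 18.1 TPM in SUZ12-/- H1, 1.08 and 0.27 in EED-/- H1, 0.70 and 0.51 in EZH2-/-/EZH1-/- H1 and at most 1.08 in every other sample. APOM, which carries sphingosine-1-phosphate, was at 43.5 and 43.6 TPM in SUZ12-/- H1, 3.68 and 2.52 in EED-/- H1, 2.06 and 7.23 in EZH2-/-/EZH1-/- H1 and 5.40 to 10.9 in the 6 WT and single-knockout samples. CP, the copper oxidase ceruloplasmin, was at 13 and 10.3 TPM in SUZ12-/- H1, 0 and 0.32 in EED-/- H1, 0.79 and 0.33 in EZH2-/-/EZH1-/- H1 and 1.52 to 2.84 in the 6. AMBP, TF, APOM and CP were called in SUZ12-/- H1 cells (log2 fold changes 3.90 ± 0.56, 4.12 ± 0.30, 2.50 ± 0.40 and 1.91 ± 0.30) and in neither other line, and the call of CP was lost with a pseudocount of 0.1.

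**Figure D3:**
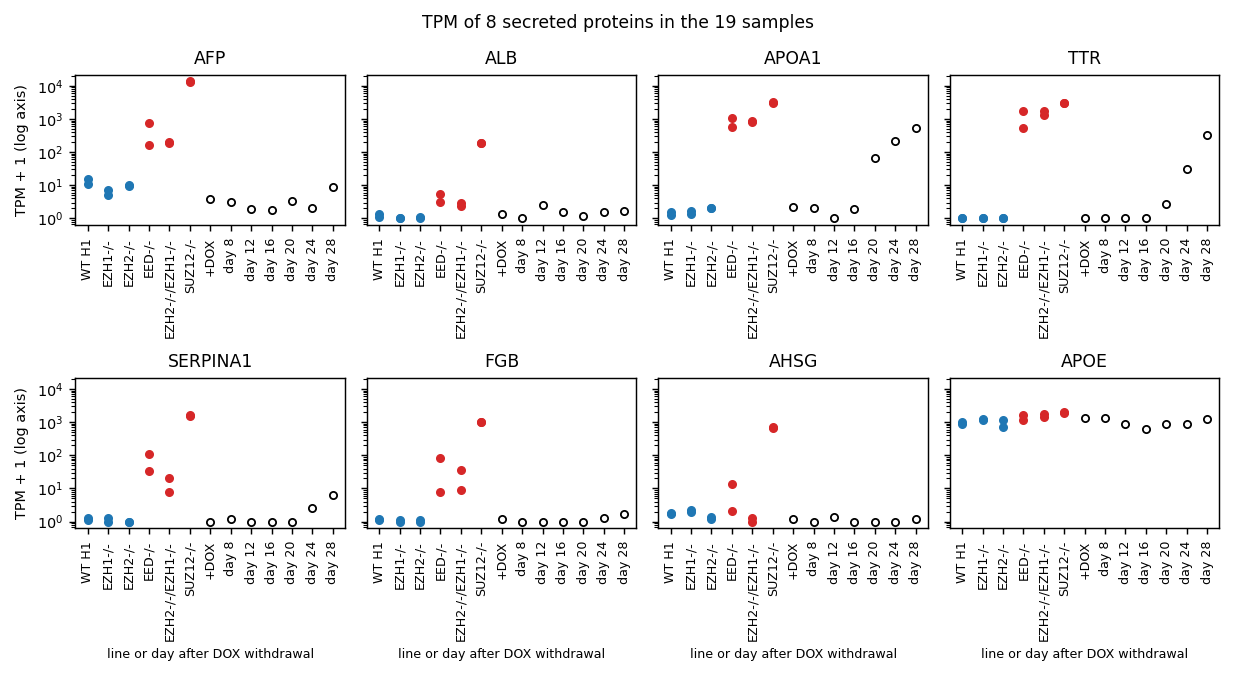
TPM + 1 on a log axis (y) of AFP, ALB, APOA1, TTR, SERPINA1, FGB, AHSG and APOE in each line and day (x). Filled points are the 2 samples of a line, red for the PRC2-null lines, and open points are the single samples of the inducible line. AFP reaches 13208 and 13695 TPM in SUZ12-/- H1, APOA1 and TTR are high in all 6 PRC2-null samples and climb at days 24 and 28, and APOE is high in every sample.

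Of the 9 apolipoproteins, 6 were called higher in SUZ12-/- H1 (beside 14.5% of all genes), 5 in EED-/- H1 (16.2%) and 4 in EZH2-/-/EZH1-/- H1 cells (11.6%). APOA1, the main protein of high-density lipoprotein, was at 0.25 to 1.10 TPM in the 6 WT and single-knockout samples, 561 and 1081 in EED-/- H1, 875 and 814 in EZH2-/-/EZH1-/- H1 and 3036 and 3267 in SUZ12-/- H1 cells. All 6 PRC2-null samples stood far above the rest. The log2 fold changes were 9.13 ± 0.28, 9.25 ± 0.28 and 11.14 ± 0.28 (adjusted p = 1.29e-08, 1.72e-08 and 3.62e-09). APOA2, the next protein of that particle, was at most 0.64 TPM in the 6 samples, 107 and 327 in EED-/- H1, 169 and 310.4 in EZH2-/-/EZH1-/- H1 and 675 and 701 in SUZ12-/- H1. APOA4, an intestinal and visceral endoderm apolipoprotein, was listed at 0 in all 6 samples and was at 23.0 and 51.3 TPM in EED-/- H1, 10.7 and 6.18 in EZH2-/-/EZH1-/- H1 and 1878 and 1943 in SUZ12-/- H1 cells. APOA4 thus differed far more between the PRC2-null lines than APOA1 and APOA2 did.

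APOC3, which inhibits lipoprotein lipase, was at most 0.30 TPM in the 6 samples, 3.28 and 17.2 in EED-/- H1, 1.30 and 3.25 in EZH2-/-/EZH1-/- H1 and 458 and 459 in SUZ12-/- H1. APOB, the scaffold of very-low-density lipoprotein, was at most 0.27 TPM in the 6, 29.1 and 39.6 in EED-/- H1, 30.0 and 8.18 in EZH2-/-/EZH1-/- H1 and 191 and 201 in SUZ12-/- H1. Both rose in SUZ12-/- H1 (log2 fold changes 8.84 ± 0.55 and 7.32 ± 0.45) and EED-/- H1 (3.14 ± 0.55 and 4.83 ± 0.45), and in EZH2-/-/EZH1-/- H1 cells APOB was called (3.78 ± 0.45) and APOC3 was not (1.65 ± 0.55, adjusted p = 0.0314). APOH, which binds phospholipids, was called only in SUZ12-/- H1, at 10.1 and 8.27 TPM, and was at 0 and 0.45 in EED-/- H1, 0.12 and 0.13 in EZH2-/-/EZH1-/- H1 and at most 0.45 in every other sample.

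APOE, a ligand of the LDL receptor family, was at 859 and 1033 TPM in WT H1, 1179 and 1214 in EZH1-/- H1, 712 and 1147 in EZH2-/- H1, 1186 and 1676 in EED-/- H1, 1425 and 1750.3 in EZH2-/-/EZH1-/- H1 and 1919 and 2009 in SUZ12-/- H1 cells. It was high everywhere and no line passed the fold of 3 (log2 fold change in SUZ12-/- H1 1.06 ± 0.24, adjusted p = 0.0042). APOC1 was at 83.1 to 130.2 TPM in the 6 samples, 152 and 445 in EED-/- H1, 224 and 305 in EZH2-/-/EZH1-/- H1 and 146 and 175 in SUZ12-/- H1. EED-/- H1 replicate 2 and both EZH2-/-/EZH1-/- H1 samples were above both SUZ12-/- H1 samples, and no line passed the fold of 3. The limma log2 fold changes were 1.56 ± 0.40 in EED-/- H1 (adjusted p = 0.00766) and 1.57 ± 0.40 in EZH2-/-/EZH1-/- H1 (adjusted p = 0.00907). Both were just short of that fold, and in SUZ12-/- H1 the value was 0.86 ± 0.40 (adjusted p = 0.103). APOC2, the activator of lipoprotein lipase, did not exceed 2.41 TPM in any sample.

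**Figure D4:**
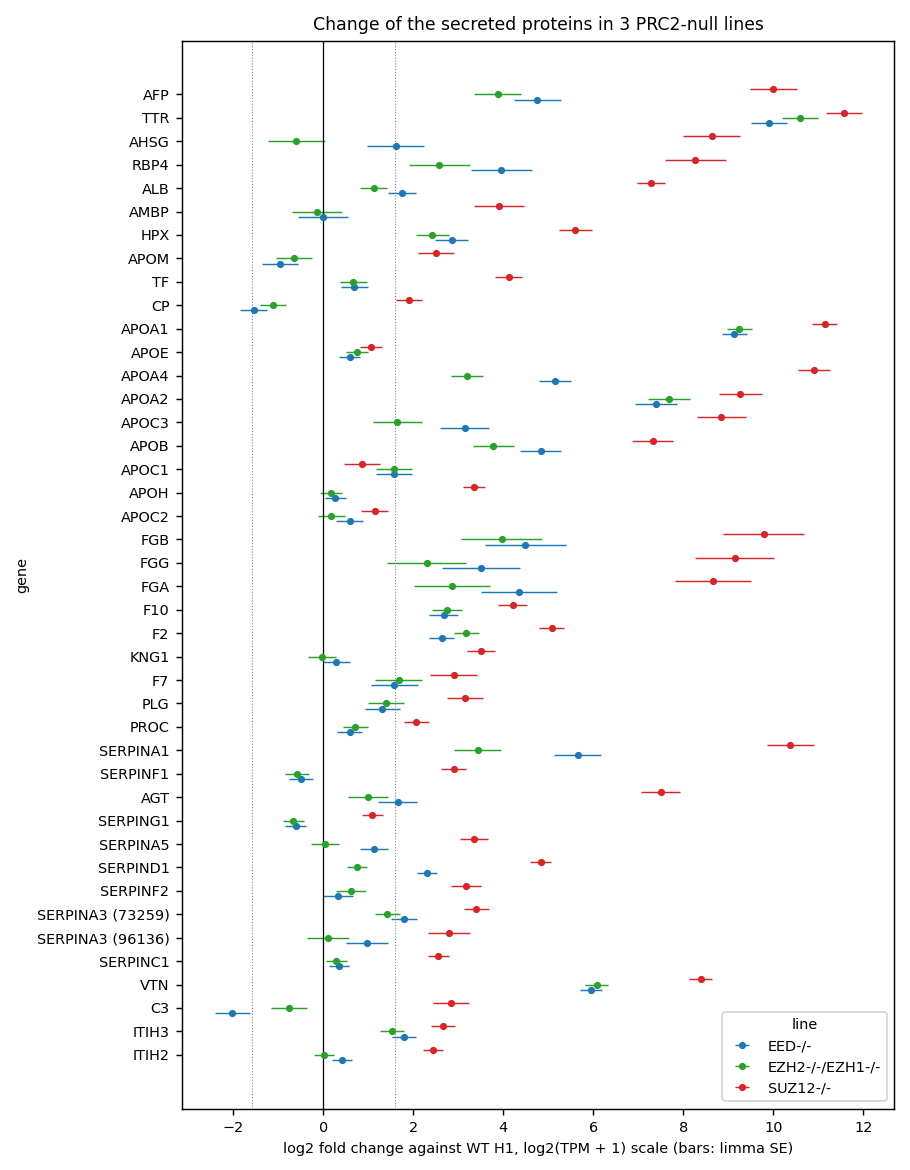
log2 fold change against WT H1 on the log2(TPM + 1) scale (x axis) of the 42 rows tested (y axis, by role), with limma standard errors as bars and dotted lines at a fold of 3. The SUZ12-/- H1 point is the farthest right for every row except APOC1, and C3 is the row called lower in EED-/- H1.

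All 9 fibrinogen chains and clotting factors were called higher in SUZ12-/- H1 (beside 14.5% of all genes), 5 in EED-/- H1 (16.2%) and 3 in EZH2-/-/EZH1-/- H1 cells (11.6%). Of these, only F7, F10 and PROC passed the filter on the WT and single-knockout samples. FGA, FGB, FGG, F2, PLG and KNG1 passed only through PRC2-null samples, so they had to be higher there. FGB, the beta chain of fibrinogen, was at most 0.20 TPM in the 6 WT and single-knockout samples, 6.75 and 84.8 in EED-/- H1, 35.5 and 7.87 in EZH2-/-/EZH1-/- H1 and 1003 and 1022 in SUZ12-/- H1 cells. FGA, the alpha chain, was at most 0.07 TPM in the 6, 10.7 and 35.0 in EED-/- H1, 22.4 and 1.24 in EZH2-/-/EZH1-/- H1 and 396 and 412 in SUZ12-/- H1. FGG, the gamma chain, was listed at 0 in the 6 and was at 2.69 and 33.8, 9.52 and 1.31 and 576 and 551 TPM in the same lines. The chains were close between the SUZ12-/- H1 samples and differed several-fold between the samples of both other PRC2-null lines, with EED-/- H1 replicate 2 and EZH2-/-/EZH1-/- H1 replicate 1 the higher.

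The log2 fold changes in SUZ12-/- H1 were 8.66 ± 0.84 for FGA, 9.79 ± 0.90 for FGB and 9.14 ± 0.88 for FGG (adjusted p = 1.49e-05, 1.03e-05 and 1.35e-05), where the values of FGG stand against a WT H1 level of 0. In EED-/- H1 they were 4.36 ± 0.84, 4.49 ± 0.90 and 3.50 ± 0.88 (adjusted p = 0.00145, 0.0018 and 0.00662), and the calls of FGA and FGG were lost without EED-/- H1 replicate 2 and those of all 3 chains without WT H1 replicate 1 or 2. The call of FGB in EZH2-/-/EZH1-/- H1 (3.97 ± 0.90, adjusted p = 0.00467) was lost without its replicate 1 and without either WT H1 sample.

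F2, the precursor of thrombin, was at most 0.29 TPM in the 6 samples, 4.67 and 7.43 in EED-/- H1, 9.5 and 8.75 in EZH2-/-/EZH1-/- H1 and 36.8 and 36.4 in SUZ12-/- H1. F10, the factor that cleaves it, was at 1.23 to 4.73, 21.3 and 39.2, 37.3 and 24.8 and 84.5 and 86.1 TPM in the same order. Both were called in all 3 lines. F7, the partner of tissue factor, was at 0.42 to 1.52 TPM in the 6 samples, 5.0 and 3.04 in EED-/- H1, 9.07 and 1.74 in EZH2-/-/EZH1-/- H1 and 11.2 and 11.3 in SUZ12-/- H1. EZH2-/-/EZH1-/- H1 replicate 1 thus lay near the SUZ12-/- H1 level of F7, which was called in SUZ12-/- H1 (log2 fold change 2.89 ± 0.52, adjusted p = 0.001, lost without WT H1 replicate 2). PLG, the precursor of the clot-dissolving enzyme plasmin, was at 10.9 and 8.69 TPM in SUZ12-/- H1, 3.53 and 0.99 in EED-/- H1, 2.89 and 1.59 in EZH2-/-/EZH1-/- H1 and 0.05 to 0.75 in the 6. KNG1, the precursor of bradykinin, was at 12.3 and 11.1 TPM in SUZ12-/- H1, 0 and 0.86 in EED-/- H1, 0.10 and 0.09 in EZH2-/-/EZH1-/- H1 and at most 0.86 elsewhere. PROC, the anticoagulant protein C, was at 9.27 and 8.56 TPM there and at most 3.32 elsewhere. F7, PLG, KNG1 and PROC were called in SUZ12-/- H1 cells and in neither other line.

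Of the 11 serpin rows, 10 were tested. Called higher were 9 in SUZ12-/- H1 (beside 14.5% of all genes), 4 in EED-/- H1 (16.2%) and 1 in EZH2-/-/EZH1-/- H1 cells (11.6%, a share near that count). SERPINA1, the elastase inhibitor alpha-1-antitrypsin, was the one called in all 3. It was at most 0.27 TPM in the 6 WT and single-knockout samples, 33.0 and 107 in EED-/- H1, 7.01 and 20.2 in EZH2-/-/EZH1-/- H1 and 1592 and 1623 in SUZ12-/- H1, with log2 fold changes of 5.65 ± 0.52, 3.43 ± 0.52 and 10.38 ± 0.52 (adjusted p = 9.92e-06, 0.000411 and 3.5e-07). AGT, the serpin from which angiotensin is cut, was at 194 and 189 TPM in SUZ12-/- H1, 0.85 and 5.06 in EED-/- H1, 1.11 and 1.13 in EZH2-/-/EZH1-/- H1 and at most 0.20 in the 6. Its call in EED-/- H1 (1.65 ± 0.44, adjusted p = 0.00963) was lost without EED-/- H1 replicate 2 and without either WT H1 sample.

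SERPINF1, the antiangiogenic factor PEDF, was already at 27.1 to 64.7 TPM in the 6 samples and at 37.4 and 52.9 in EED-/- H1 and 50.2 and 35.2 in EZH2-/-/EZH1-/- H1, which overlapped them, while SUZ12-/- H1 stood at 466 and 491. SERPING1, the inhibitor of complement C1, was at 47.5 to 65.6 TPM in the 6, 35.0 and 50.6 in EED-/- H1, 50.4 and 32.6 in EZH2-/-/EZH1-/- H1 and 142 and 136 in SUZ12-/- H1, and did not pass the fold of 3 there (log2 fold change 1.09 ± 0.23, adjusted p = 0.00293). SERPINA5, the protein C inhibitor, was at 1.87 to 3.22 TPM in the 6, 7.59 and 8.08 in EED-/- H1, 4.72 and 2.01 in EZH2-/-/EZH1-/- H1 and 39.4 and 41.1 in SUZ12-/- H1. SERPIND1, heparin cofactor II, was at 28.8 and 29.4 TPM in SUZ12-/- H1, 3.97 and 4.49 in EED-/- H1, 0.68 and 0.88 in EZH2-/-/EZH1-/- H1 and at most 0.12 in the 6. SERPINF2, the inhibitor of plasmin, was at 1.01 to 3.48 TPM in the 6, 1.59 and 2.74 in EED-/- H1, 3.59 and 2.09 in EZH2-/-/EZH1-/- H1 and 20.9 and 21.9 in SUZ12-/- H1. SERPINF1, SERPINA5, SERPINF2 and SERPINC1 were called in SUZ12-/- H1 cells and in neither other line. The lowest were SERPINC1 (antithrombin), with at most 4.87 TPM, SERPINA6, which carries cortisol, with at most 1.16, and the SERPINA3 rows (an inhibitor of chymotrypsin-like proteases), with at most 6.07 for ENSG00000196136 and 10.7 for ENSG00000273259. The latter was at 8.54 and 10.7 TPM in SUZ12-/- H1, 3.34 and 1.76 in EED-/- H1 and 1.30 and 2.13 in EZH2-/-/EZH1-/- H1.

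All 4 complement and matrix-binding proteins were called higher in SUZ12-/- H1 cells, beside 14.5% of all genes. VTN, the adhesion protein vitronectin, was at most 0.32 TPM in the 6 WT and single-knockout samples, 56.8 and 80.8 in EED-/- H1, 75.6 and 72.3 in EZH2-/-/EZH1-/- H1 and 362 and 379 in SUZ12-/- H1, and was called in all 3 lines (log2 fold changes 5.95 ± 0.25, 6.07 ± 0.25 and 8.38 ± 0.25). C3, the central complement component, was at 12.3 and 8.89 TPM in WT H1, 15.6 and 16.8 in EZH1-/- H1, 16.1 and 6.45 in EZH2-/- H1, 2.74 and 1.13 in EED-/- H1, 6.60 and 4.99 in EZH2-/-/EZH1-/- H1 and 78.4 and 83.0 in SUZ12-/- H1 cells. The EED-/- H1 samples were below all 6 and the SUZ12-/- H1 samples above all other samples. The log2 fold change was -2.02 ± 0.40 in EED-/- H1 (adjusted p = 0.00156, lost without its replicate 2 and without WT H1 replicate 1) and 2.83 ± 0.40 in SUZ12-/- H1 (adjusted p = 0.000188). ITIH2 and ITIH3, heavy chains that attach to hyaluronan, did not exceed 5.10 and 6.12 TPM.

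The 3 PRC2-null lines were then compared with one another. Of the 43 rows, 32 were higher in SUZ12-/- H1 than in EED-/- H1 and 0 lower, beside 3.54% and 2.58% of all genes. Against EZH2-/-/EZH1-/- H1, 32 were higher and 0 lower, beside 3.32% and 1.14%, and 31 rows were called in both. Both counts of 32 fell strongly when either SUZ12-/- H1 sample was left out, as did the share of all genes called. Such fits leave that line with 1 sample. With only the 4 samples of SUZ12-/- H1 and EZH2-/-/EZH1-/- H1 in the fit, 7 rows were higher in SUZ12-/- H1, beside 0.126% of all genes. The 7 rows that passed the filter only through the SUZ12-/- H1 samples had to be higher there. Among the 35 that passed without these samples, the fit of all 12 samples called 27 higher against EED-/- H1 and 26 against EZH2-/-/EZH1-/- H1. Among the 17 that passed on the WT and single-knockout samples alone, it called 12 against each. Between EED-/- H1 and EZH2-/-/EZH1-/- H1 cells, 0 rows were called in either direction by limma, beside 0.0576% and 0.0314% of genes, while 7 were higher and 1 lower at an unadjusted p under 0.05, beside 14.5% and 5.54% of genes. When EZH2-/-/EZH1-/- H1 replicate 1 or EED-/- H1 replicate 1 was left out, calls higher in EED-/- H1 appeared. Such fits leave a line with 1 sample, and the first also called a larger share of all genes.

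The largest differences between SUZ12-/- H1 and both other PRC2-null lines were those of AHSG, with log2 differences of 7.02 ± 0.63 from EED-/- H1 and 9.23 ± 0.63 from EZH2-/-/EZH1-/- H1 (adjusted p = 4.25e-05 and 1e-05). AFP differed by 5.25 ± 0.52 and 6.13 ± 0.52 (adjusted p = 8.32e-05 and 3.24e-05), ALB by 5.54 ± 0.31 and 6.17 ± 0.31 (adjusted p = 3.34e-06 and 1.92e-06), and APOA4 by 5.75 ± 0.36 and 7.71 ± 0.36 (adjusted p = 6.23e-06 and 1.11e-06). The calls of these 4 did not depend on either SUZ12-/- H1 sample. APOA1 differed by 2.01 ± 0.28 and 1.90 ± 0.28 (adjusted p = 0.000669 and 0.00122), and both calls were lost without either SUZ12-/- H1 sample. TTR, with 1.67 ± 0.40 and 0.97 ± 0.40 (adjusted p = 0.0146 and 0.139), and APOA2, with 1.87 ± 0.47 and 1.58 ± 0.47 (adjusted p = 0.0187 and 0.0481), did not pass. The 10 rows called against neither line were APOA2, APOC1, APOC2, APOE, TTR, SERPINA6, F7, F10, PROC and ITIH3.

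In EZH1-/- H1 and EZH2-/- H1 cells, 0 rows were called in either direction by limma. Of all genes, 0.0576% were higher and 0.0419% lower in EZH1-/- H1 and 0% in each direction in EZH2-/- H1. At an unadjusted p under 0.05, 1 row was higher and 0 lower in EZH1-/- H1, beside 9.48% and 6.53% of genes, and 1 higher and 2 lower in EZH2-/- H1, beside 2.37% and 3.44%.

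In the inducible line each day had 1 sample, so the days were set against the sample with DOX by size alone. Of the 43 rows, 27 passed the filter in the 7 samples of the line and 16 did not. Rows at least 3-fold higher on the log2(TPM + 1) scale numbered 0 at day 8, 0 at day 12, 1 at day 16, 2 at day 20, 10 at day 24 and 14 at day 28. Of all genes the same held for 2.93%, 3.08%, 4.13%, 9.62%, 13.9% and 18.8%. Of the 14 at day 28, APOA2, APOA4, APOB, TTR, SERPINA1, VTN and F2 were under 1 TPM with DOX and to day 16. These passed the filter only through later days, so they had to be higher there. HPX reached 1 TPM before day 20 only at day 8 (1.24 TPM), so it too needed later days to pass. Rows at least 3-fold lower were AMBP at day 8, APOM at day 12, SERPINF1 at day 20 and APOM and C3 at day 28, beside 0.603%, 0.400%, 0.939%, 2.91%, 5.09% and 6.11% of all genes at days 8, 12, 16, 20, 24 and 28.

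APOA1 was at 1.15 TPM with DOX, 1.09 at day 8, 0 at day 12, 0.89 at day 16, 66.3 at day 20, 217 at day 24 and 524 at day 28. APOA2 was at 0, 0.91, 0, 0, 31.9, 142 and 289 TPM in the same order. Both were low to day 16 and high from day 20 on. TTR was listed at 0 with DOX and to day 16, and was at 1.67 TPM at day 20, 30.6 at day 24 and 324 at day 28. VTN was at most 0.73 TPM to day 16, 2.42 at day 20, 43.3 at day 24 and 50.8 at day 28. Both thus stayed low for longer than APOA1 and APOA2.

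APOB was at 1.63 TPM at day 20, 8.04 at day 24 and 20.1 at day 28, from 0.09 with DOX. APOA4 reached 7.66 TPM and SERPINA1 5.19 at day 28, from a listed 0 with DOX. F10 was at 3.36 TPM with DOX, 21.8 at day 24 and 28.2 at day 28, and APOC1 at 82.3 with DOX and 422 at day 28. At day 28, ALB was at 0.67 TPM, FGB at 0.67, AGT at 0.15 and AHSG at 0.23, each under 1 TPM. APOE was at 632 to 1374 TPM from day 8 to day 28 and at 1329 with DOX. Over the same samples, the visceral endoderm markers summed to 1.42 TPM with DOX, 249 at day 24 and 365 at day 28, those of pluripotent stem cells to 4707, 416 and 420, and those of fibroblasts and smooth muscle to 363, 7709 and 7890.

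A linear trend over days 8 to 28 (limma on 6 samples, 17245 genes) called 0 rows in either direction at the same thresholds, beside 1.35% of genes higher and 0.661% lower. At an unadjusted p under 0.05, 13 rows had an upward and 0 a downward slope, beside 21.8% and 14.9% of genes. Without day 16 the trend called 1 row. At an adjusted p of at most 5% with no fold minimum, 9 rose: APOA1, APOA2, APOA4, APOB, APOC1, TTR, VTN, HPX and F2, beside 12.3% of genes. Of these 9, APOA2, APOA4, APOB, TTR, VTN and F2 passed the filter only through days 20 to 28. HPX reached 1 TPM before these days only at day 8, so it did not pass without them. The estimated log2 change over the 20 days was 9.76 ± 1.5 (SE) for APOA1 (adjusted p = 0.0111), 8.97 ± 1.58 for APOA2 (adjusted p = 0.0145), 8.30 ± 1.56 for TTR (adjusted p = 0.0165) and 1.28 ± 0.82 for AFP (adjusted p = 0.294).

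**Figure D5:**
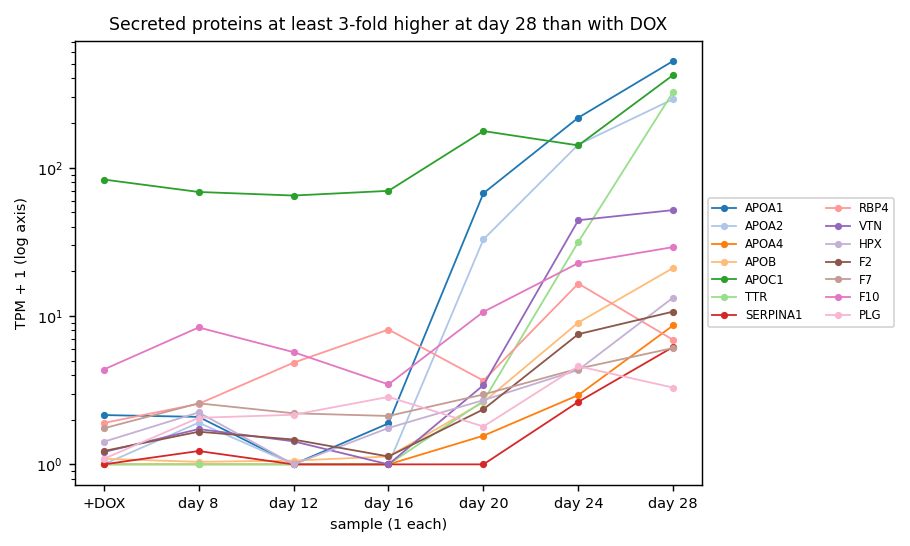
TPM + 1 on a log axis (y) of the 14 genes at least 3-fold higher at day 28 than with DOX, in the sample with DOX and at each day without it (x, 1 sample each). APOA1 and APOA2 climb from day 20, TTR and VTN mainly from day 24, and APOC1 starts at 82.3 TPM.

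Several of the genes lie beside one another in the genome (GENCODE release 44, GRCh38). ALB, AFP and AFM, a vitamin E carrier, lie in that order within 107 kb of chromosome 4 (73397114 to 73504001), and in SUZ12-/- H1 samples they were at 184 and 193, 13208 and 13695 and 1.82 and 1.11 TPM. APOA5, APOA4, APOC3 and APOA1 lie within 48.3 kb of chromosome 11 (116789367 to 116837622). In SUZ12-/- H1 the ratio of APOA1 to APOA4 was 1.62 and 1.68 and that of APOA1 to APOC3 was 6.63 and 7.12. In EED-/- H1 the same ratios were 24.4 and 21.1, and 171 and 62.9, and in EZH2-/-/EZH1-/- H1 they were 81.9 and 132, and 673 and 250. APOA1 was thus high in all 6 PRC2-null samples while its neighbours were high mainly in SUZ12-/- H1, and APOA5 did not exceed 0.96 TPM.

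APOE, APOC1, APOC4 and APOC2 lie within 43.8 kb of chromosome 19 (44905791 to 44949565). The first pair was high in all 19 samples and the second did not exceed 1.15 TPM for APOC4 and 2.41 for APOC2. FGB, FGA and FGG lie side by side on chromosome 4 (154563011 to 154612967), and FGB exceeded FGG 1.74-fold and 1.86-fold in SUZ12-/- H1 samples. In the SERPINA cluster of 9 genes on chromosome 14 (94280460 to 94624055), SERPINA1 and SERPINA5 were the highest in SUZ12-/- H1, and SERPINA9 did not exceed 0.20 TPM in any sample.

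By Spearman correlation with AFP over the 19 samples, given as a description, the most similar rows were ENSG00000273259 of SERPINA3 (0.806), FGB (0.800), PROC (0.784), APOB (0.777) and SERPIND1 (0.773). The samples share lines and days, and the SUZ12-/- H1 samples set the top of each.

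Of a list of 53 other plasma proteins of the liver, 37 were tested. The list had 23 higher and 1 lower in SUZ12-/- H1 (beside 14.5% and 5.21% of all genes), 10 higher and 1 lower in EED-/- H1 (16.2% and 6.09%), and 9 higher and 1 lower in EZH2-/-/EZH1-/- H1 cells (11.6% and 5.66%). Its highest were CLU, a chaperone in plasma, at 322 and 429.6 TPM in WT H1 and 409 and 368 in SUZ12-/- H1, and A2M, a broad protease inhibitor, at 0.03 and 0.61 in WT H1, 88.8 and 37.1 in EED-/- H1, 53.4 and 26.3 in EZH2-/-/EZH1-/- H1 and 318 and 314 in SUZ12-/- H1. F5, the cofactor of F10, was highest in EED-/- H1 replicate 1, with the EED-/- H1 samples at 187 and 32.7 TPM, against 31.8 and 27.8 in SUZ12-/- H1. CFI, which cleaves C3b, was at 106 and 109.7 TPM in SUZ12-/- H1 and at 1.89 and 5.25 in EED-/- H1.

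Of 22 hepatocyte enzymes and transporters, 14 were tested. They included 9 higher in SUZ12-/- H1, 2 higher and 2 lower in EED-/- H1, and 2 higher and 1 lower in EZH2-/-/EZH1-/- H1 cells. Beside these stand 14.5%, 16.2% and 11.6% of all genes higher, and 6.09% and 5.66% lower in the last 2 lines. The higher counts of the last 2 lines lay near those shares. ASGR1, a subunit of the asialoglycoprotein receptor, was at 69.5 and 66.8 TPM in SUZ12-/- H1 and 7.82 and 9.44 in WT H1, and TDO2, which degrades tryptophan, at 47.8 and 46.1 in SUZ12-/- H1 and 0 and 0 in WT H1. Of 16 genes of lipoprotein assembly and remodelling, 14 were tested. Called higher were 6 in SUZ12-/- H1 and 4 in each other PRC2-null line, beside the same shares of all genes. P4HB, a subunit of the complex that loads lipid onto APOB, was the highest, at 348 and 398 TPM in WT H1, 1284 and 1460.3 in EED-/- H1, 1258 and 1189 in EZH2-/-/EZH1-/- H1 and 1033 and 1024 in SUZ12-/- H1, and was called in all but SUZ12-/- H1 of the PRC2-null lines. FABP1, a fatty acid carrier of the liver, was at 264 and 291 TPM in SUZ12-/- H1, 0.53 and 5.26 in EED-/- H1 and 2.06 and 0.88 in EZH2-/-/EZH1-/- H1.

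Of 16 liver and visceral endoderm transcription factors, 12 were higher in SUZ12-/- H1 (beside 14.5% of all genes), 9 in EED-/- H1 (16.2%) and 9 in EZH2-/-/EZH1-/- H1 cells (11.6%). GATA4 was at 0.13 and 0.16 TPM in WT H1, 103 and 98.1 in EED-/- H1, 124 and 75.2 in EZH2-/-/EZH1-/- H1 and 68.7 and 69.3 in SUZ12-/- H1, and FOXA2 at 0.23 and 0.29, 14.3 and 22.1, 36.0 and 26.4 and 12.2 and 13.5 in the same order. Both factors were lower in SUZ12-/- H1 than in the other PRC2-null samples, while AFP and ALB were higher there, but limma called neither factor between these lines. The 2 factors called higher in SUZ12-/- H1 than in EED-/- H1, named after their values were seen, were CEBPA, at 28.0 and 30.6 against 2.84 and 4.79 TPM, and NR1H4, the bile acid receptor, at 7.34 and 6.94 TPM and listed at 0 in both EED-/- H1 samples. Of 8 yolk sac endoderm uptake receptors, 4 were higher in SUZ12-/- H1, 4 in EED-/- H1 and 5 in EZH2-/-/EZH1-/- H1, beside the same shares of all genes. LRP1, a receptor for APOE, was at 47.8 and 45.8 TPM in WT H1, 282 and 185 in EED-/- H1, 181 and 129 in EZH2-/-/EZH1-/- H1 and 118 and 118 in SUZ12-/- H1, where it was not called. DAB2, an endocytic adaptor, was at 2.53 and 2.81 TPM in WT H1, 139 and 112 in EED-/- H1, 101 and 67.5 in EZH2-/-/EZH1-/- H1 and 52.4 and 51.4 in SUZ12-/- H1.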

How the data were processed

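RNA-seq was done on 19 samples. Reads were mapped by the authors with Bowtie and RSEM to a human mRNA reference of GRCh38, and the deposited values are TPM per gene. The labels also name hg38 and hg19 without a role. The authors tested raw counts with edgeR, and the TPM values, which keep no depth, do not allow that test. TPM values sum to 999999.2 to 1000001.0 per sample, which limits a statement on precision to the spread between samples. The filter on low values asked for 1 TPM or more in 2 or more libraries (19100 of the lines, 17245 of the inducible line). limma 3.58.1 (R 4.3.3) with trend and robust options was run on log2(TPM + 1), in which changes of low genes are understated. The 12 samples of the lines were fitted with a mean per line (6 residual degrees of freedom), and day as a number in 6 samples (4 residual degrees of freedom). Calls needed an adjusted p (Benjamini-Hochberg, over all genes tested) of at most 1% and a fold of at least 3. Tested on simulated data, SUZ12-/- H1 against WT H1 recovered 75% of 4-fold and 95% of 8-fold changes with 1 false call (16162 genes), and the trend 51% of 8-fold changes with 0 false calls (16593 genes). These changes were placed only in genes averaging more than 10 TPM, on the log2(TPM + 1) scale, in WT H1 or the inducible line. Of the 43 rows, 6 and 5 had 10 TPM or more in the WT H1 samples, so the recovery does not describe the lower rows. By the rule for named genes, each PRC2-null sample is given for genes called in a comparison with at least 10 TPM in a sample or with 100 TPM in any, the WT and single-knockout samples mostly as a range or a highest value, and of the rest the highest value. Genes outside the 42 are up to 4 of a list, from the highest in TPM, besides chromosomal neighbours, markers at or near 0, and CEBPA and NR1H4, chosen after their values were seen. The genes, lists and tests were chosen with earlier results of these data known. Positions are from GENCODE release 44, promoters from RefSeq (11 genes had none in the table used). Figures were drawn with matplotlib 3.10.9. Alternatives were another pseudocount, scaling by median ratios, no filter, another threshold, plain limma options, fits of 4 samples, a replicate block and leaving out samples. Same-numbered samples of different lines did not deviate together (mean correlation -0.00266, from -0.121 to 0.218 over 15 pairs of lines), so the numbers were not used as pairs.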

Additional observations from a re-analysis of the deposited data

Results flagged for a closer look

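C3 changed in opposite directions in 2 PRC2-null lines, lower in EED-/- H1 and higher in SUZ12-/- H1 cells. The difference between the log2 changes was 4.86 (limma, SUZ12-/- H1 against EED-/- H1), and both SUZ12-/- H1 samples were above all others while both EED-/- H1 samples were below WT H1. For 32 of the 43 rows (27 of the 35 that passed the filter without the SUZ12-/- H1 samples) the change against WT H1 was larger in SUZ12-/- H1 than in EED-/- H1 cells. For 32 (26 of those 35) it was larger than in EZH2-/-/EZH1-/- H1 cells, each by limma's test of that difference. Both counts of 32 changed when 1 sample was left out and were lowest without a SUZ12-/- H1 sample, where fewer of all genes were called too.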

How the results depend on the processing

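No direction reversed under any alternative run, and the counts not named here stayed within 1.5 times. With a pseudocount of 0.1, 21 rows were higher in EZH2-/-/EZH1-/- H1 (beside 14.9% of all genes), 2 were lower in EED-/- H1 (7.32%), the trend over days called 1 (1.5%), and 4, 2, 2 and 9 rows passed 3-fold at days 8, 12, 16 and 20 (9.05%, 9.52%, 10.3% and 16.5%). With 2-fold in place of 3-fold, 1, 2 and 7 passed at days 12, 16 and 20 (12.0%, 12.9% and 20.2%). With scaling by median ratios 2 rows were lower in EED-/- H1 (8.83%). With an adjusted p of at most 5% and no fold minimum, 38 rows were higher in the PRC2-null average (36.4% of all genes), 23 higher and 2 lower in EZH2-/-/EZH1-/- H1 (26.9% and 17.4%), 3 lower in EED-/- H1 (17%), 2 higher in EED-/- H1 than in EZH2-/-/EZH1-/- H1 (0.565%), and 9 in the trend (12.3%). With only 4 samples in the fit, 7 rows were higher in SUZ12-/- H1 than in EZH2-/-/EZH1-/- H1 (0.126%). Leaving out 1 sample at a time gave 16 to 34 rows higher in SUZ12-/- H1 than in EED-/- H1 and 18 to 35 than in EZH2-/-/EZH1-/- H1, 0 to 3 higher in EED-/- H1 than in EZH2-/-/EZH1-/- H1, and 0 to 1 in the trend (1 without day 16). The lowest values were without a SUZ12-/- H1 sample. Where 1 sample of a line was left, it was assumed to vary like the other lines. With the replicate number as a block, 20 rows were higher in EED-/- H1, 38 in SUZ12-/- H1, 12 in EZH2-/-/EZH1-/- H1 and 25 in the average, 32 and 33 in SUZ12-/- H1 against the others, and of single genes only AGT in EED-/- H1 lost its call. Of 161 single-gene calls, 107 held under every alternative run on them and 54 were lost under at least 1, in 135 of 1821 checks. The causes were not tested. TPM keeps no depth, so the precision of low values is unknown.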
